A study of Mus musculus with 6 samples.

Results

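The 37 genes described here encode proteins that detect and repair damaged DNA or that halt the cell cycle while damage is present. They were chosen by name, and all 37 had a row among the 17217 rows of the deposited table. RNA was sequenced from cells labelled BMDMs (bone marrow-derived macrophages), in 3 Cd74 knockout libraries (labelled KO) and 3 Control libraries (labelled Con). The labels' protocols describe femur marrow from mice 8 weeks old, grown in medium with 30 ng/mL of the cytokine M-CSF, on which macrophages depend. All 6 libraries, Control included, came from cells given 100 ng/mL LPS (lipopolysaccharide, a bacterial cell wall component) for 24 h. The protocols name CD74-/- and CD74+/+ cells but call the marrow donors wild type in every record, and the groups used here are those of the titles. How the Cd74 allele was made is not stated there. The batch label is 2 for every knockout and 1 for every Control library, and the effects of genotype and batch cannot be told apart. Nothing in the labels ties a replicate to an animal or culture of its own, and the spread behind each p-value may be only technical.

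Homologous recombination copies an intact sister strand, the Fanconi anaemia pathway removes links between DNA strands, and mismatch, base excision and nucleotide excision repair replace wrong or altered bases. The kinases ATR and ATM pass the signal of stalled replication or broken ends to CHEK1 and CHEK2, which restrain the cell cycle. Many genes that act at replication forks are transcribed mostly in cells that copy their DNA, under E2F transcription factors, whereas base and nucleotide excision and damage-sensing genes are commonly transcribed in resting cells too. The 37 genes were divided on that background knowledge into 19 S-phase-linked and 18 constitutive genes. The division went gene by gene, and the base excision genes Ung and Neil3 were placed in the S-phase-linked class. The class was uncertain for Fanca, Topbp1 and Xrcc2, placed as S-phase-linked, and for Parp1, Palb2, Chek2, Fancg and Atrip, placed as constitutive.

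Recovered depth was 57726401, 50526641 and 54289370 reads in knockout replicates 1 to 3, against 36226051, 52145333 and 50140941 reads in Control replicates 1 to 3. The values of all 37 genes were whole reads in all 6 libraries, from 150 to 32725 reads per gene and library. If reads were independent, counting error would be at most 8.16% of a value. Cd74 itself stood at 65.3, 64.6 and 63.1 TPM (a transcript level scaled to gene length and library size) in the knockout libraries, against 632, 593 and 594 TPM in the Control libraries. None of its 3 knockout values came out as whole reads. Of 8 macrophage markers 7 had a row, and their sum was 13941 to 15190 TPM in knockout and 10596 to 11142 TPM in Control libraries. Most of the gap between these sums came from Lyz2, at 8102 to 9547 TPM in knockout and 4966 to 5622 TPM in Control libraries. Among the 7 markers Lyz2, Itgam and Csf1r rose and Adgre1 fell, the Itgam call being lost without Control replicate 3 or knockout replicate 1 or 2. The macrophage genes Cd68 and Cd14 were high in all 6 libraries, Cd68 at 1886 to 1927 TPM in knockout and 1741 to 1876 TPM in Control libraries, and Cd14 at 2921 to 3094 and 2778 to 2897 TPM. Mertk was without a row, as were all 6 progenitor and all 6 T cell markers. The 2 neutrophil markers with a row summed to 16.3 to 22.6 TPM in knockout and 4.55 to 6.60 TPM in Control libraries, and the 2 B cell markers to 11.9 to 12.7 and 7.92 to 10.2 TPM. The 2 erythroid markers with a row summed to at most 0.516 TPM in a knockout library and 0.625 TPM in a Control library, and the 4 stromal markers with a row to at most 0.341 and 0.622 TPM. Elane, Ly6g and Ms4a1, defining neutrophil and B cell genes, had no row, and the part of S100a8 and Ighm, which carry those sums, in the results was not tested.

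Repair and checkpoint transcripts were more abundant in the Cd74 knockout libraries. Of the 37 genes 25 rose and 0 fell by limma at an adjusted p under 0.05, where 18.5% of all 13034 tested rows were called higher and 10.1% lower. By unadjusted p under 0.05, 31 were higher and 0 lower, where 26.2% of tested rows were higher and 16.1% lower. By limma-voom on recovered reads 26 were called higher and 0 lower, where 17.8% of its 12549 rows were called higher and 13.8% lower. Summed over the 37 genes, the level was 1318, 1341 and 1466 TPM in knockout replicates 1 to 3, against 956, 1092 and 1029 TPM in Control replicates 1 to 3, and the groups did not overlap. In bulk RNA, more cells that use a gene and more RNA per cell cannot be told apart.

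Called rises were more frequent among the S-phase-linked genes. All 19 rose, with log2 fold changes of 0.34 to 0.89 and a median of 0.61, where the median of all tested rows was 0.04. Of the 18 constitutive genes 6 rose (33.3%) and 12 were not called, with log2 fold changes of -0.24 to 0.67 and a median of 0.20. The S-phase-linked groups of libraries did not overlap for 19 of 19 genes, all higher in the knockout, where 30.2% of tested rows were separated in that direction. For the constitutive genes 11 of 18 were separated higher and 1, Xpc, was separated lower, where 19.8% of tested rows were separated lower. The 2 classes overlapped in size of change: 6 constitutive genes lay above the lowest S-phase-linked gene (Brca2), and 8 S-phase-linked genes lay above the highest constitutive gene (Apex1). The difference between the classes is a description of these 37 chosen genes and was not tested.

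**Figure D1:**
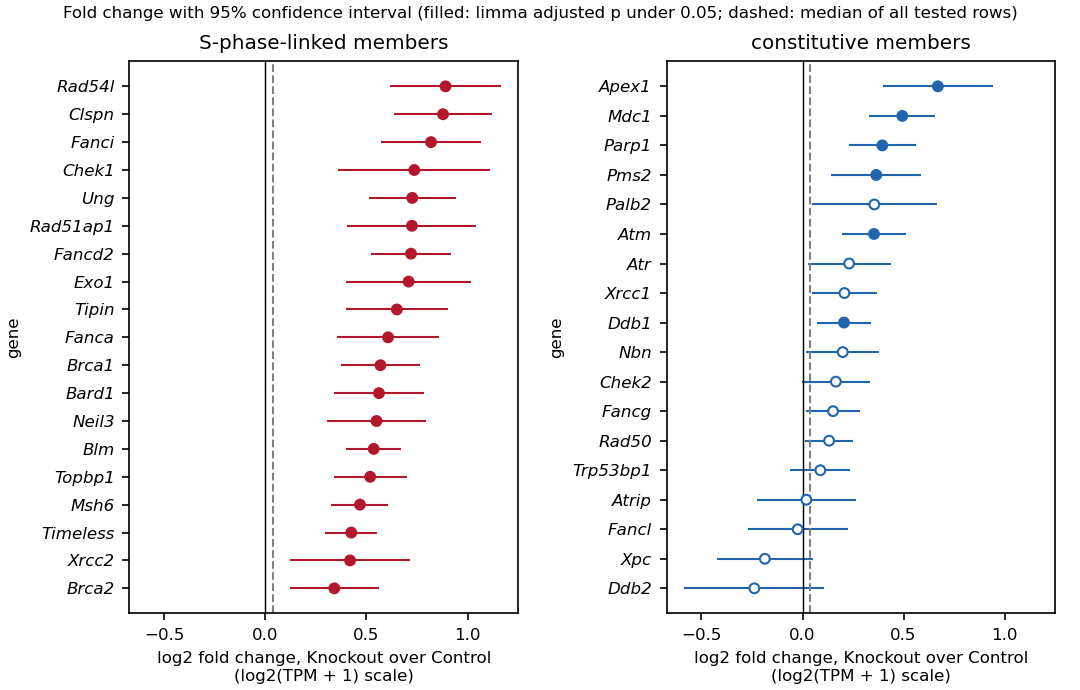
Log2 fold change of each gene, knockout over Control, on the log2(TPM + 1) scale, with its 95% confidence interval from limma; filled points passed an adjusted p of 0.05 and the dashed line is the median of all 13034 tested rows (0.04). All 19 S-phase-linked genes lie to the right of 0.3, while the 18 constitutive genes spread between -0.24 and 0.67.

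Start regions of genes that rose and of genes that were not called are shown to let their letters be compared. RefSeq's table (GRCm38.p6) held 300 bases, 250 before and 50 from the start onward, for 29 of the 37 genes, 15 S-phase-linked and 14 constitutive. The E2F element, the site of the E2F factors that drive S-phase transcription, was searched on both strands as TTTCCCGC, TTTCGCGC, TTTGCCGC or TTTGGCGC. It was present in 5 of 15 S-phase-linked and 3 of 14 constitutive genes, where 4.94% of the 9126 tested genes with an entry and 2.26% of all 32851 start regions of this length held it. The motifs were chosen after the expression values were seen. The 8 matches, with the element or its reverse complement in capitals and 10 bases on either side, were:
Clspn, chr4:126556991-126557018, plus strand: ccgcgtctggGCGCGAAAgctcgaactt
Topbp1, chr9:103305188-103305215, plus strand: cgctcggttgGCGCGAAAgtcggttccc
Bard1, chr1:71103164-71103191, minus strand: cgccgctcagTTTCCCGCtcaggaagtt
Msh6, chr17:87975055-87975082, plus strand: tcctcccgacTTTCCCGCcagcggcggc
Brca2, chr5:150522443-150522470, plus strand: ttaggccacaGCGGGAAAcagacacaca
Mdc1, chr17:35841472-35841499, plus strand: cttcagcctgTTTCCCGCcggtagccgc
Chek2, chr5:110839821-110839848, plus strand: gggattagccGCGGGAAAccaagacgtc
Fancg, chr4:43010336-43010363, minus strand: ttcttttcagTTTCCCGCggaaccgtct
The first base of the element lay at base 22 in Clspn, at base 16 in Msh6, and at bases -16 in Mdc1, -52 in Fancg, -129 in Topbp1, -152 in Chek2, -168 in Brca2 and -209 in Bard1, counted from the start as base 1. Of the 8 genes 6 rose, all but Chek2 and Fancg, where 67.6% of all 37 genes and 18.5% of all tested rows were called higher. Of the 3 S-phase-linked genes with the largest rise, Clspn held the element, whereas Rad54l and Fanci did not.

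Complete start regions are printed for Clspn, the S-phase-linked gene with an element and the largest rise, for Mdc1, a constitutive gene with an element that rose, and for Chek2, a constitutive gene with an element that was not called, with the element in capitals. Apex1, the constitutive gene with the largest rise, held no E2F element and is printed with its 3 E-boxes (CACGTG, the site of MYC-type factors) in capitals.
Clspn, chr4:126556730-126557029, plus strand: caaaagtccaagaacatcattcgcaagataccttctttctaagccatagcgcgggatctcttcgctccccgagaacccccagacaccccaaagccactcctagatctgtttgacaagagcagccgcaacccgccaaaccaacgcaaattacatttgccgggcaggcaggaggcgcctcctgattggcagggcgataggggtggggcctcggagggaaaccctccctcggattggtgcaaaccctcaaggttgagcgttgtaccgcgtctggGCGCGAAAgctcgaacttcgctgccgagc
Mdc1, chr17:35841248-35841547, plus strand: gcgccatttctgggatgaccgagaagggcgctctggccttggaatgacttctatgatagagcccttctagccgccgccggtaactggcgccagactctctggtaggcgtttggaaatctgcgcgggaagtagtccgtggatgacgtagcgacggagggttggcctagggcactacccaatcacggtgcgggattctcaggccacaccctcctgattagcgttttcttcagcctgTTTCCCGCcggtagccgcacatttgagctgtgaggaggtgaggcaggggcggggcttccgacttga
Chek2, chr5:110839733-110840032, plus strand: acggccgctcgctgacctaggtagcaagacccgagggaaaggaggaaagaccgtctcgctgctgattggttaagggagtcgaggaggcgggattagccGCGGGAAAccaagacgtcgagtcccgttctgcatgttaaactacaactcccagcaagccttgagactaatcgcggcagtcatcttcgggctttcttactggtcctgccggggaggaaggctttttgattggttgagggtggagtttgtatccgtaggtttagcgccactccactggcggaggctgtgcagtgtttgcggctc
Apex1, chr14:50924699-50924998, plus strand: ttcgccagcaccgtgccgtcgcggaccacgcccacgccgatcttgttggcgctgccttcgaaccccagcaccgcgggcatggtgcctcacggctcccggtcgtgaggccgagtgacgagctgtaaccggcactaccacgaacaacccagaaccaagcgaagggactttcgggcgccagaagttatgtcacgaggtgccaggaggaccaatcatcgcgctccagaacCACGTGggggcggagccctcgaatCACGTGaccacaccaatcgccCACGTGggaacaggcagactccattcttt
An E-box was present in 2 of the 29 genes, Apex1 and Parp1, where 12% of tested genes held it. The other motifs were searched on both strands too. The shorter E2F core, each form of the element above without its leading T, was in 10 of 15 S-phase-linked and 6 of 14 constitutive genes (19.8% of tested genes). Fanci and Apex1, without the longer element, both held this core, whereas Rad54l did not. The CCAAT box was in 7 of 15 and 8 of 14 genes (43.3%), and the CHR element (TTTGAA, or its variant form TTCGAA) of genes expressed late in the cycle in 2 of 15 and 2 of 14 genes (17.2%). Apex1 held these 2 motifs as well. The ETS element CCGGAAGT was in 1 of the 29 genes, Palb2 (10%), and the NRF1 element in 0 of 29 (2.48%). A match of letters is a description and shows no binding.

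Of 9 homologous recombination genes 8 rose, all 8 of them S-phase-linked. This and each pathway count below stand beside a share of 18.5% of all tested rows called higher. Rad54l, a motor protein of homologous recombination, had 25.8, 27.2 and 29.8 TPM in knockout replicates 1 to 3, against 12.02, 16.7 and 14.8 TPM in Control replicates 1 to 3. Every knockout library lay above every Control library, and the change of 0.89 on the log2 scale (SE 0.12, limma adjusted p = 0.00409) was the largest of the 37. Rad51ap1, another gene of homologous recombination, had 20.5, 22.6 and 24.7 TPM in knockout libraries, against 10.6, 14.1 and 15.5 TPM in Control libraries. Exo1, the exonuclease that trims broken ends and mismatched strands, had 10.1, 10.6 and 13.0 TPM in knockout libraries, against 5.45, 7.39 and 6.63 TPM in Control libraries. For both genes Control replicate 1 was the lowest library and knockout replicate 3 the highest, and the log2 fold changes were 0.72 (adjusted p = 0.0103) and 0.71 (adjusted p = 0.0101) by limma.

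Brca1 and Bard1, whose products form a ubiquitin ligase at broken ends, rose by 0.57 and 0.56 on the log2 scale (limma adjusted p = 0.00534 and 0.00771). Brca1 averaged 23.9 ± 2.77 TPM in knockout and 15.7 ± 0.348 TPM in Control libraries, and Bard1 averaged 12.9 ± 1.06 and 8.42 ± 0.873 TPM (SD, n = 3 each). Blm, a helicase that dissolves joined DNA molecules, rose by 0.54 (limma adjusted p = 0.00265). Brca2, a mediator of homologous recombination, rose by 0.34 (limma adjusted p = 0.0344), the smallest rise among the S-phase-linked genes, and was not called under upper-quartile scaling or without any 1 of 5 libraries (all but Control replicate 2; adjusted p up to 0.104). Xrcc2, which acts in homologous recombination, rose by 0.42 (limma adjusted p = 0.0449), a call lost without any 1 of the 6 libraries, with no filter, under both scalings and without the trend and robust settings (adjusted p up to 0.115). Palb2, which joins BRCA1 to BRCA2, had 6.38, 7.99 and 8.17 TPM in knockout libraries, against 5.04, 6.64 and 5.30 TPM in Control libraries. Knockout replicate 1 lay below Control replicate 2 there, and Palb2 was not called (log2 fold change 0.36, limma adjusted p = 0.0828).

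**Figure D2:**
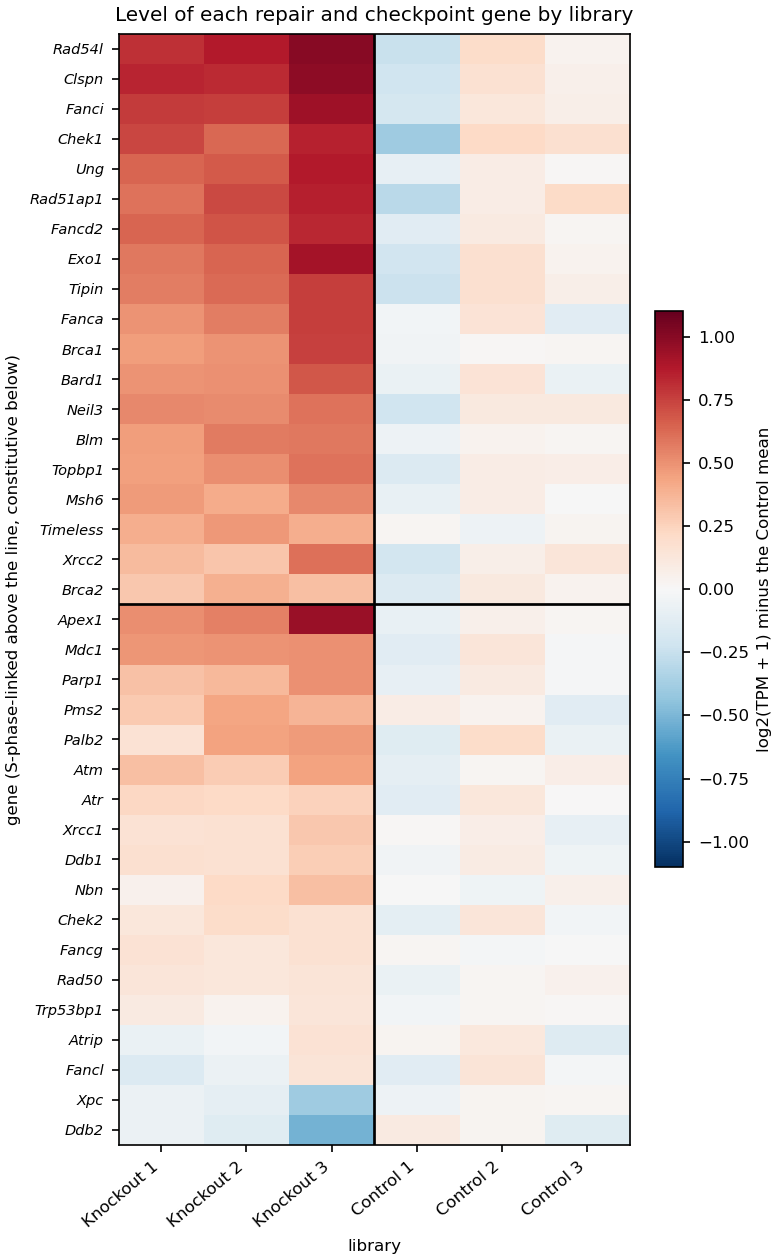
Level of each of the 37 genes (rows) in each library (columns, knockout left of the line), as log2(TPM + 1) minus the mean of the 3 Control libraries. Knockout columns are red for all 19 S-phase-linked genes, knockout replicate 3 is the deepest red for most, and Xpc and Ddb2 at the bottom are blue in the 3 knockout libraries.

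Of 5 Fanconi anaemia genes 3 rose and 2 were not called. Fanci and Fancd2 encode the pair that is tagged with ubiquitin when the pathway is switched on. Fanci had 13.2, 13.1 and 15.0 TPM in knockout libraries, against 6.30, 8.11 and 7.73 TPM in Control libraries, a log2 fold change of 0.82 (SE 0.11, limma adjusted p = 0.00384). Fancd2 had 17.1, 17.7 and 19.5 TPM in knockout libraries, against 9.62, 11.4 and 10.7 TPM in Control libraries, a log2 fold change of 0.72 (limma adjusted p = 0.00295). For both genes the lowest knockout library lay well above the highest Control library. Among 3 core complex genes, Fanca had 10.7, 11.3 and 13.1 TPM in knockout libraries, against 7.14, 8.25 and 6.64 TPM in Control libraries, and rose by 0.61. Fancg averaged 14.8 ± 0.242 TPM in knockout and 13.2 ± 0.218 TPM in Control libraries (SD, n = 3 each), with no overlap, but was not called (0.15, limma adjusted p = 0.0837). Fancl, the ubiquitin ligase of the complex, averaged 11.5 ± 1.35 TPM in knockout and 11.7 ± 1.201 TPM in Control libraries (SD, n = 3 each) and was not called (-0.02, 95% interval -0.27 to 0.22).

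All 5 S-phase-linked checkpoint genes, which act at replication forks, rose. Clspn, which encodes claspin, the adaptor through which ATR activates CHEK1, had 35.3, 34.8 and 39.1 TPM in knockout libraries, against 16.5, 21.8 and 20.1 TPM in Control libraries (log2 fold change 0.88, SE 0.10, limma adjusted p = 0.00303). Chek1 had 24.4, 22.6 and 26.4 TPM in knockout libraries, against 10.7, 16.7 and 16.2 TPM in Control libraries (0.74, SE 0.16, limma adjusted p = 0.0158). Control replicate 1 was well below the other 2 Control libraries for Chek1, which had the widest interval of the S-phase-linked genes (0.36 to 1.11). Tipin, 1 of the pair that steadies the fork, had 163, 169 and 186 TPM in knockout libraries, against 93.0, 123 and 114 TPM in Control libraries, and rose by 0.65. Its partner Timeless was several times less abundant, at 26.3 ± 0.882 TPM in knockout and 19.4 ± 0.669 TPM in Control libraries (SD, n = 3 each), and rose by 0.42 (limma adjusted p = 0.00387). Topbp1, an activator of ATR, rose by 0.52 (limma adjusted p = 0.00554).

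Of the genes for the apical kinases, Atm rose and Atr was not called. Atm, the kinase of broken ends, had 39.9, 38.6 and 43.3 TPM in knockout libraries, against 29.4, 32.1 and 33.2 TPM in Control libraries, and rose by 0.35 (limma adjusted p = 0.0107). Atr, the kinase of stalled forks, had 9.01, 8.96 and 9.18 TPM in knockout libraries, against 6.83, 8.31 and 7.61 TPM in Control libraries. The Atr groups did not overlap, yet limma did not call it (0.23, adjusted p = 0.0878) while limma-voom did (adjusted p = 0.0307). Its partner Atrip stood at 8.13 ± 0.819 TPM in knockout and 8.01 ± 0.809 TPM in Control libraries (SD, n = 3 each; 0.02, 95% interval -0.23 to 0.27). Chek2, the kinase downstream of ATM, was not called (0.16, limma adjusted p = 0.125). Mdc1, the chromatin scaffold of the damage signal, had 37.2, 37.4 and 37.9 TPM in knockout libraries, against 24.2, 29.0 and 26.2 TPM in Control libraries, and rose by 0.49 (limma adjusted p = 0.00481). Trp53bp1, another protein recruited to that chromatin, was not called (0.09, 95% interval -0.06 to 0.24). Nbn and Rad50, subunits of the complex that binds broken ends, were not called either (0.20 and 0.13, limma adjusted p = 0.0927 and 0.0901).

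Base excision repair genes rose in 4 of 5 cases. Ung, which removes uracil from DNA, had 12.1, 12.4 and 14.4 TPM in knockout libraries, against 6.89, 7.90 and 7.49 TPM in Control libraries, and rose by 0.73 (SE 0.09, limma adjusted p = 0.00375). Neil3, another base-removing enzyme, rose by 0.55 (limma adjusted p = 0.0106). Apex1, the nuclease that cuts beside a missing base, had 70.1, 72.2 and 95.3 TPM in knockout libraries, against 46.2, 51.1 and 49.7 TPM in Control libraries. It rose by 0.67 (limma adjusted p = 0.00818), the largest change of the constitutive genes, and knockout replicate 3 was far above the other knockout libraries. Parp1, the sensor of nicked DNA, had 113, 116 and 128 TPM in knockout libraries, against 84.6, 96.7 and 89.2 TPM in Control libraries, and rose by 0.39. Xrcc1, the scaffold recruited there, had groups that did not overlap but was not called (0.21, limma adjusted p = 0.0593, range over the alternatives 0.0487 to 0.174).

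Both mismatch repair genes rose. Msh6, whose product recognises mismatches, averaged 66.0 ± 2.95 TPM in knockout and 47.5 ± 2.68 TPM in Control libraries (SD, n = 3 each), a rise of 0.47 (limma adjusted p = 0.00384). Pms2, a nicking partner, had 7.33, 8.20 and 7.83 TPM in knockout libraries, against 6.23, 6.00 and 5.26 TPM in Control libraries, and rose by 0.36 (limma adjusted p = 0.0278). That call was lost without Control replicate 2 or 3 or knockout replicate 2 or 3 (adjusted p up to 0.092).

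Of 3 nucleotide excision repair genes 1 rose. Ddb1, which encodes a damage-binding subunit that also serves ubiquitin ligases, was the most abundant of the 37, at 290.1 ± 11.8 TPM in knockout and 252 ± 14.2 TPM in Control libraries (SD, n = 3 each). Its rise of 0.21 (limma adjusted p = 0.0344) was lost in 9 of 15 alternatives, among them both scalings, the replicate block and 5 of the 6 left-out libraries (adjusted p up to 0.116). Ddb2, its partner in detecting ultraviolet lesions and a p53 target in human cells, had 4.86, 4.56 and 3.26 TPM in knockout libraries, against 5.55, 5.24 and 4.58 TPM in Control libraries. The groups overlapped and Ddb2 was not called (-0.24, 95% interval -0.59 to 0.11). Xpc, a lesion sensor and a p53 target in human cells, averaged 9.22 ± 1.22 TPM in knockout and 10.6 ± 0.412 TPM in Control libraries (SD, n = 3 each) and was not called (-0.19, limma adjusted p = 0.207). Ddb2 and Xpc had the 2 lowest log2 fold changes of the 37, and for both knockout replicate 3 was the lowest library.

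**Figure D3:**
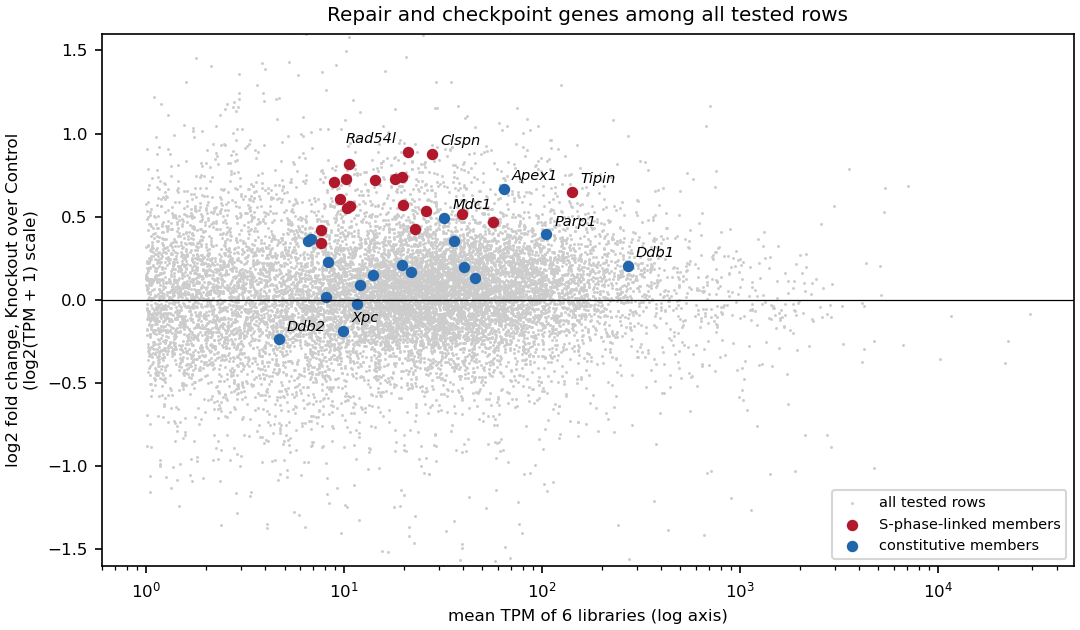
Log2 fold change, knockout over Control, against the mean TPM of the 6 libraries (log axis) for all tested rows in grey, with S-phase-linked genes in red and constitutive genes in blue; 31 tested rows lie outside the vertical range. The red points lie above 0.3 over levels of 7.66 TPM (Xrcc2) to 141 TPM (Tipin), and the blue points extend from Ddb2 to Ddb1, the highest level.

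Genes outside the 37, of the same pathways or of end joining, gave a mixed picture. Of 84 such genes on 7 lists 83 were tested, and 27 rose, 5 fell and 51 were not called, with a median log2 fold change of 0.16. Among all tested rows, 18.5% were called higher and 10.1% lower, with a median of 0.04. Other homologous recombination genes included 6 of 16 that rose, with Rpa2 at 0.67 and Brip1 at 0.59, and 1 that fell, Rad52 (-0.47). The Rad52 call was lost without Control replicate 1. Of 11 other Fanconi anaemia genes 5 rose, Fancb (0.75), Usp1 (0.45), Faap24 (0.40), Ube2t (0.39) and Fancm (0.39, a call lost in 9 of 15 alternatives). Of 13 other checkpoint genes 8 rose and 0 fell, led by H2ax (1.05), Wee1 (0.58), Tonsl (0.57) and Dtl (0.51). The Tonsl call was lost without Control replicate 1 or 3.

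On the remaining lists genes were called in both directions, where 18.5% of all tested rows were called higher and 10.1% lower. Among 14 tested other base excision and strand break genes 3 rose and 2 fell, with a median of -0.01. The rises were Fen1 (0.78) and Lig1 (0.75), a flap nuclease and a ligase that also act in DNA replication, and Lig3 (0.22, lost in 10 of 15 alternatives), and Ogg1 (-0.23) was among those that fell. The Ogg1 call was lost without Control replicate 1 or 3 or knockout replicate 1. Of 14 other nucleotide excision genes 3 rose and 1 fell, with a median of 0.02. They were Ercc2 (0.40), Cetn2 (0.39) and Ercc3 (0.22), against Xpa (-0.58), the damage verifier. The Ercc2 call was lost without Control replicate 1 or 3 or knockout replicate 2, and the Ercc3 call without Control replicate 3. Of 10 end joining genes 1 rose (Xrcc6, 0.17, a call lost in 10 of 15 alternatives) and 1 fell (Paxx, -0.73), with a median of -0.03.

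Among 17 tested p53 target genes 1 rose and 5 fell, with a median of -0.08. Of all tested rows 18.5% were called higher and 10.1% lower. Gadd45a, a growth arrest gene, averaged 30.8 ± 7.92 TPM in knockout and 73.2 ± 7.76 TPM in Control libraries (SD, n = 3 each), a log2 fold change of -1.25. Bbc3, the cell death gene PUMA, fell by 0.84, the death receptor gene Fas by 0.68, Plk2 by 0.67 and Sesn2 by 0.33 on the log2 scale. The Sesn2 call was lost without Control replicate 2. The gene that rose was Aen, a nuclease gene (0.34). The cell cycle inhibitor Cdkn1a and the p53 antagonist Mdm2 were among the 11 that were not called, named after their values were seen.

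Genes of DNA replication and mitosis rose as well. All 20 replication genes rose, with a median of 0.71, and so did all 14 mitosis genes, with a median of 0.87. The median was 0.61 for the 19 S-phase-linked repair genes, and 18.5% of all tested rows were called higher. Averaged over its members, the S-phase-linked class stood 0.56, 0.59 and 0.73 log2 units above the Control mean in knockout replicates 1 to 3, and at -0.16, 0.11 and 0.05 in Control replicates 1 to 3. The replication genes stood at 0.60, 0.67 and 0.94 in knockout replicates and at -0.16, 0.13 and 0.03 in Control replicates. The constitutive class stood at 0.16, 0.19 and 0.24 in knockout replicates and at -0.05, 0.07 and -0.02 in Control replicates. The level of the S-phase-linked class minus that of the constitutive class, set to a Control mean of 0, was 0.40, 0.39 and 0.48 in knockout replicates and -0.11, 0.04 and 0.07 in Control replicates. The part that the share of cycling cells has in the repair gene levels was not tested.

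**Figure D4:**
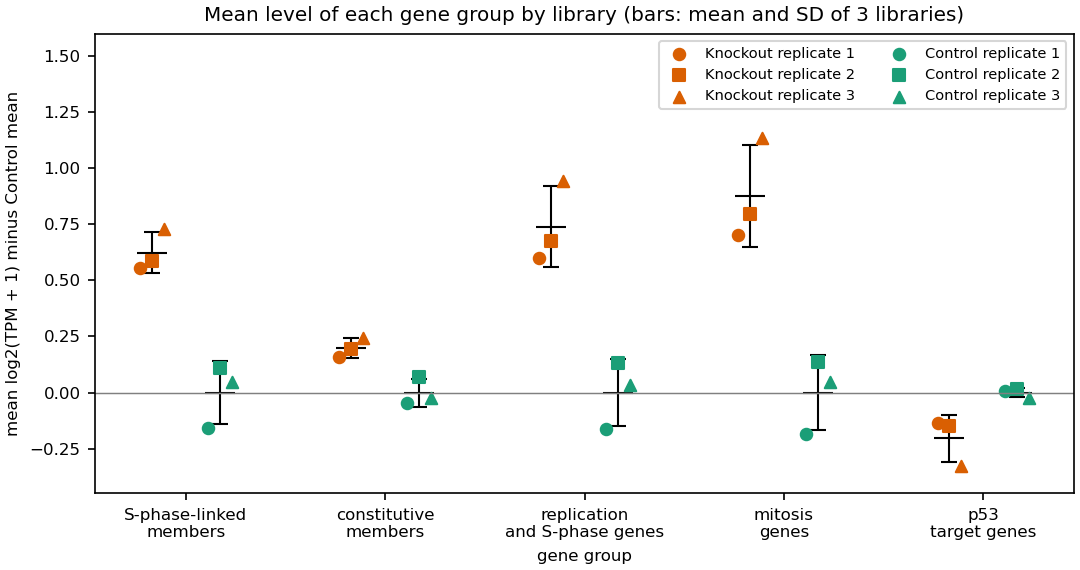
Mean log2(TPM + 1) of each gene group in each library, minus the mean of the Control libraries, with knockout left of Control in each group and bars for the mean and SD of 3 libraries. Knockout replicate 3 is the highest library for the 2 classes and for the replication and mitosis genes and the lowest for the p53 targets, and Control replicate 1 is the lowest for all but the p53 targets.

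Single libraries stood apart in the same way across many members. Knockout replicate 3 was the highest library for 30 of the 37 genes, 17 of them S-phase-linked, and Control replicate 1 the lowest for 26, also with 17 S-phase-linked. Control replicate 1 had the fewest reads of the 6 libraries. Without knockout replicate 3 the S-phase-linked median was 0.53 and 17 of the 19 were called, and without Control replicate 1 it was 0.54 with 17 called. In these and all other settings tried, 17 of the 19 S-phase-linked genes, all but Brca2 and Xrcc2, and 4 of the 6 constitutive genes that rose, Apex1, Mdc1, Parp1 and Atm, were called.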

How the data were processed

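The deposited table gave 1 column per library, and 0 per-sample columns lacked a sample. Its header names no unit. The deposited values were taken as TPM, since columns summed to between 991721 and 998572 and low values were steps set by gene length. The submitters' processing notes list GRCm39 and DESeq2 with no role, and the aligner, counter and annotation are not given in the sources used here.

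Reads were recovered as TPM times union exon length (GENCODE M21, an annotation of an earlier build used for lengths alone) over the library's step. At a tolerance of 0.02 read, 16482 of 17217 rows (95.7%) were whole in all 6 libraries. Of the other rows, Fancb, H2ax and Xrcc5 of the lists were whole at another length. Expression was tested with limma 3.58.1 in R 4.3.3 (lmFit, eBayes with trend=TRUE and robust=TRUE) on log2(TPM + 1), leaving out rows whose mean was under 1 TPM, two-sided, with Benjamini-Hochberg adjustment over 13034 rows and a threshold of 0.05. This scale understates changes of low genes. Reads are not independent molecules, so counting error is a lower limit. Whether counting used strand is not given, so overlapping antisense genes may share reads.

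The members, classes and lists were chosen with earlier results of these data known, including the rise of cell cycle genes, and give no independent support. Every member is named, with values per library for the 10 S-phase-linked and 8 constitutive genes of largest absolute change, and up to 4 called genes of the largest change per other list. Where 5 or fewer were called, the rest (Fancm, Lig3, Sesn2, Aen), and Cdkn1a and Mdm2, were named after their values were seen. Some genes of the lists are not reported here. Alternatives were another pseudocount (0.1), no filter or one at 5 TPM, median-of-ratios and upper-quartile scaling, eBayes without trend and robust settings, limma-voom on recovered reads, a replicate block and each library left out. The table restricted to rows of whole reads was added after the data were seen. The test was checked on simulated data, in which the changes set were larger than any found for the 37 genes. That check does not cover changes of the size found for them.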

Additional observations from a re-analysis of the deposited data

How the results depend on the processing

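Over 15 alternatives, 21 to 26 of the 37 genes were called higher and 0 lower, and 21 of the 25 called genes were called in every one. With 1 library left out in turn, 21 to 24 were called higher, of which 17 to 18 were S-phase-linked and 4 to 7 constitutive. The medians then ran over 0.53 to 0.68 for the S-phase-linked class, 0.16 to 0.24 for the constitutive class and 0.37 to 0.45 for their difference. Upper-quartile scaling, which put the median of all tested rows at -0.01, against 0.04 as deposited, lowered the constitutive median to 0.15. It also left 1735 rows called higher and 1868 lower, against 2406 and 1313 as deposited, and median-of-ratios scaling gave 1821 and 1715. Over all tested rows, 2026 were called higher and 1222 lower without knockout replicate 1, 1585 and 872 without knockout replicate 2, and 2094 and 1156 without knockout replicate 3. The counts were 1411 and 716 without Control replicate 1, 1728 and 769 without Control replicate 2, and 1312 and 666 without Control replicate 3. With the S-phase-linked class narrowed to the 6 genes on a widely used G1/S list, 6 of 6 rose and the difference of the medians was 0.51. Without the genes of uncertain class, 16 of 16 S-phase-linked and 5 of 13 constitutive genes rose, and the difference of the medians was 0.47. Fewer genes entered both of these settings by construction.

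Of 554 values of single genes under an alternative, 514 kept direction and call, 29 lost the call, 4 gained it and 7 changed sign. The 7 were of 2 genes that were never called. Atrip was at -0.0163 and -0.0307 under median-of-ratios and upper-quartile scaling and at -0.00618 by limma-voom, and ran from -0.0531 to 0.0768 with 1 library left out, below 0 without Control or knockout replicate 3. Fancl ran from -0.108 to 0.0485 with 1 library left out, above 0 without Control replicate 2 or knockout replicate 1. The cause was not tested. Ddb2 gave no value with the filter at 5 TPM.

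With a replicate block 24 genes were called higher, 19 of them S-phase-linked, and Ddb1 alone changed its call. Of all 13034 tested rows, 2331 were then called higher and 1380 lower. Deviations of same-numbered libraries from their group mean correlated at 0.134, -0.077 and 0.031 over genes, and knockout replicate 3 correlated best with Control replicate 2 (0.168). Centring on a mean of 3 libraries ties these values together, so they cannot decide whether the numbers pair the samples. Counting error would be at most 8.16% for any of the 37 genes if reads were independent, and precision rests on 3 libraries per group.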
